A study of Mus musculus with 22 samples.

Results

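The genes described are the 45 receptors and carriers of GABA and glutamate signalling measured with 1 gene symbol per probe set in 22 tissue samples of RIP1-Tag2 mice, out of 19938 genes on the arrays. They were taken by a rule on symbols and not by their values. The choice was made with earlier results of these data known. They comprise 13 subunits of the GABA-A receptor, 3 of its rho class, both subunits of the GABA-B receptor, 4 AMPA, 5 kainate, 6 NMDA and 1 delta subunit of the ionotropic glutamate receptors, 7 metabotropic glutamate receptors and 3 vesicular glutamate carriers. The symbol rule also took Grid2ip, which encodes a scaffold protein that binds a delta glutamate receptor and is not itself a receptor.

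RIP1-Tag2 mice express the SV40 T antigen under the rat insulin promoter, so that pancreatic beta cells pass from hyperplastic and angiogenic islets to neuroendocrine tumours. All 22 samples, the normal islets included, were labelled with this genotype, and the labels used here give no age, sex or treatment. RNA was hybridised to 1 Affymetrix Mouse Gene 1.0 ST array per sample. There were 3 normal islet, 3 hyperplastic islet, 3 angiogenic islet, 5 islet tumour, 5 met-like primary and 3 liver metastasis samples. All 3 liver metastases have titles starting with I, whereas islet tumours and met-like primaries have titles starting with I, II or III. In comparisons of the metastases, tissue and this title code therefore cannot be fully told apart. The sources used here do not give how a tumour was assigned to the met-like primaries, and if expression profiles were used, the comparison with islet tumours is not independent of that choice. The labels do not say whether samples of a group came from separate animals, so p-values measure the spread between these samples, which may be technical. All values are log2 intensities normalised by the authors, and a level is compared only between tissues for the same gene. A gene was called at an adjusted p below 0.05 (limma, Benjamini-Hochberg over all genes). Where a call was lost when a single sample was left out, when only the arrays compared were fitted, or when a code taken from sample titles was fitted as a block, this is given beside the gene with the resulting adjusted p. Between islets and tumours that block joins only the islets coded I-93 to titles starting with I, which is an assumption. In bulk tissue, fewer cells of a type and less RNA per cell cannot be told apart.

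GABA-A receptors are chloride channels built from subunits of several classes, and GABA-B receptors are obligate pairs of G protein-coupled subunits. AMPA, kainate and NMDA receptors are cation channels opened by glutamate, whereas metabotropic receptors signal through G proteins. In pancreatic islets, beta cells make and release GABA, glutamate acts on several endocrine cell types, and receptors of both kinds are known in beta and alpha cells.

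Promoter sequences of the 3 GABA-A subunit genes with the largest differences and of Gria2, the AMPA subunit with the largest difference, are shown because these genes set the met-like primaries and liver metastases apart from the other tissues below. Each is the 250 bases before the start of the gene in RefSeq (GRCm38.p6), written 5′ to 3′ on the strand of the gene. Gabrb1 has 2 listed starts, and the downstream one is shown. Capitals mark the letters GGGCGG (a GC box) in Gabra2 and the reverse complement of GGACAGCG (part of the RE1 element bound by the repressor REST) in Gria2.
Gabrg1, chr5:70842618-70842867, minus strand: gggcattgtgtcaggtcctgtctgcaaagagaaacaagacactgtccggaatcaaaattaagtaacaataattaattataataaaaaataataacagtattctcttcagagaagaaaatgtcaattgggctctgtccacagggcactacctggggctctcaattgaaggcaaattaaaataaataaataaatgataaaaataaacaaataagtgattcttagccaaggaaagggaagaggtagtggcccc
Gabra2, chr5:71095850-71096099, minus strand: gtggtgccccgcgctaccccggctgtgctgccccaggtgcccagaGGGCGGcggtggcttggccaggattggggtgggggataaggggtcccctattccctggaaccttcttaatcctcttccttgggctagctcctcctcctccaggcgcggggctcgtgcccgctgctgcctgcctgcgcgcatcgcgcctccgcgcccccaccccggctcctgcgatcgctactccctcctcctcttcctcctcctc
Gabrb1, chr5:71699682-71699931, plus strand: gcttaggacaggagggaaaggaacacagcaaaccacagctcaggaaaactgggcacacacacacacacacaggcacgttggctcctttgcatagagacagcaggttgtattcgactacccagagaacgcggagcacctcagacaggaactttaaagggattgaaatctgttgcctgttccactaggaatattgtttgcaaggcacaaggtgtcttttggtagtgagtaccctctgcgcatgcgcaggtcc
Gria2, chr3:80802836-80803085, minus strand: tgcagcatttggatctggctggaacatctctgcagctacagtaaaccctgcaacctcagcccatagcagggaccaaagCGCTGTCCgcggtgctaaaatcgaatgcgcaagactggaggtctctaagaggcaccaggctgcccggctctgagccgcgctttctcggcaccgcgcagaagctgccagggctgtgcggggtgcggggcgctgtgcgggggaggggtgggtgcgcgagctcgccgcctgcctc
The promoters of Gabrg1 and Gabrb1 held none of the 6 motifs searched, and their GC contents of 35.6% and 50.8% lay below those of Gria2 (64.8%) and Gabra2 (70%). For 35 of the 45 genes, RefSeq listed 45 promoters, with a median GC content of 58.8% against 52.4% over all 32851 promoters. The motifs were searched on both strands. GGGCGG was in 48.9% of the genes' promoters and in 32.7% of all promoters. TCAGCACC, another part of RE1, was in 2.22% against 1.32%, the 1 promoter being that of Grm2, and GGACAGCG was in 2.22% against 0.992%. The cyclic AMP response element TGACGTCA was in 0% against 1.55%, the E box CAGCTG in 2.22% against 13.0%, and the E box CAGATG in 11.1% against 14.4%. No matches overlapped in the sequences shown, and a match is a description of letters, not of binding.

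The families differed most between islet tumours and met-like primaries, where 17 of the 45 genes were higher in the met-like primaries and 4 were lower. This was 46.7% of the genes, beside 26.5% of all genes called in that comparison. The median log2 difference was 0.11 against -0.02 over all genes. The genes had been chosen with earlier results of these data known, so this share is a description. From met-like primaries to liver metastases 2 genes were higher and 6 lower (17.8%, beside 15.7% of all genes). That count was 4 without the metastasis I-9820 (beside 10.6% of all genes) or I-9821 (9.78%) and 5 without I-9822 (9.97%). From islet tumours to liver metastases 11 were higher and 5 lower (35.6%, beside 36.6%). The last 2 shares lay near the background and are not a result about these genes as a set.

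From normal to hyperplastic islets 2 genes were higher and 1 lower (6.67%, beside 8.64% of all genes), or 2 higher and 2 lower with arrays centred on their medians. From hyperplastic to angiogenic islets limma called 0 of the 45 genes, beside 2.53% of all genes, and 3 had an unadjusted p below 0.05. From angiogenic islets to islet tumours 5 were higher and 0 lower (11.1%, beside 9.54%), and the count was 2 without AngiogenicI-93 (beside 3.67% of all genes) and 3 without Angiogenic2006 (5.14%). From normal islets to islet tumours 10 were higher and 3 lower (28.9%, beside 29.0%). A test for any difference among the 6 tissues called 27 of the 45 genes (60.0%, beside 58.7%). The 7 comparisons share tissue groups and are not independent of each other. As a mark of background signal, 95% of 1027 olfactory receptor genes had a mean level that did not exceed 6.4. Of the 66 calls of single genes over the 7 comparisons, 24 had 1 group mean at or under this level and 9 had both. A difference from such a group is close to background on that side. It is given below as a log2 difference only, not as a linear fold, and its size is to be read with this limit.

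**Figure D1:**
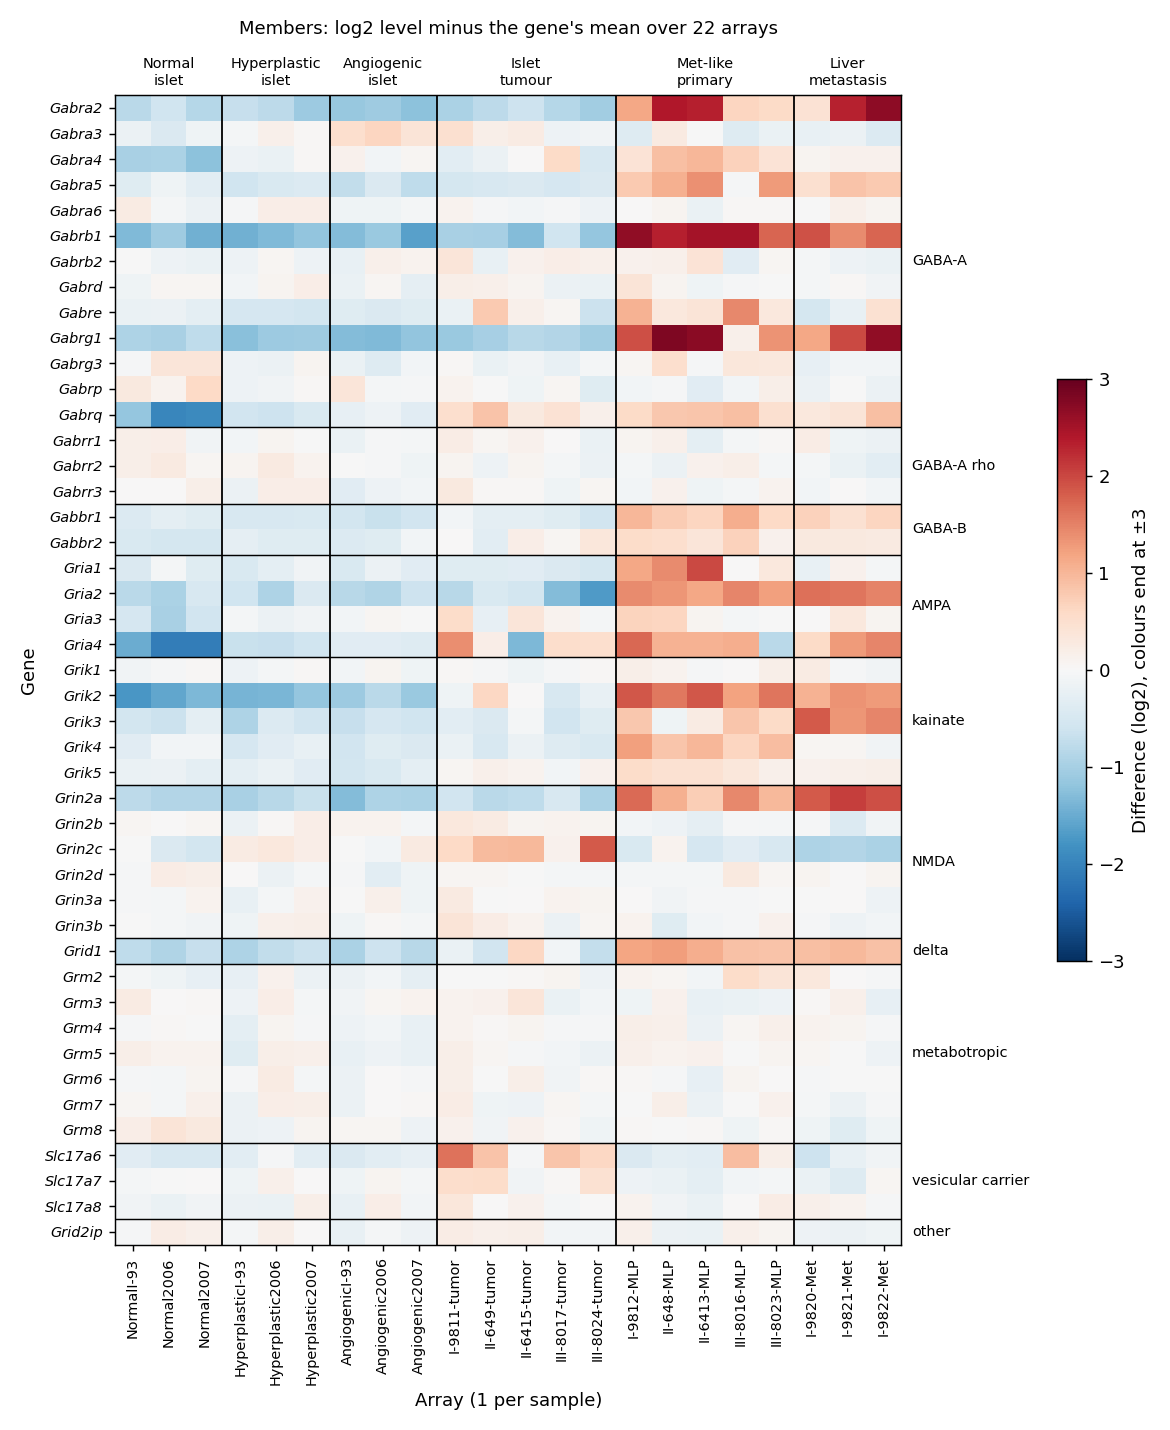
Each cell is the log2 level of 1 gene (rows, by family) on 1 array (columns, by tissue) minus the gene's mean over the 22 arrays, with colours ending at a difference of 3. Gabrb1, Gabrg1, Gabra2, Gria2, Grik2 and Grin2a stand high in the met-like primaries and liver metastases, Grin2c stands high in the islet tumours, and the metabotropic receptors show little difference between tissues.

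Some features of whole samples moved with these comparisons. The Xist transcript ranged from 10.67 to 11.41 over the 9 islet samples and from 5.33 to 6.46 over the other 13. All 8 measured immediate-early genes were lower in islet tumours than in angiogenic islets (median -2.16), with array means between 9.27 and 10.05 in islets and between 7.09 and 7.42 in islet tumours. Islets and tumours did not overlap in either measure, so these differences and the stage cannot be told apart in any comparison of islets with tumours. All 4 markers of dividing cells were higher than in normal islets in both hyperplastic islets (median 2.65) and islet tumours (median 3.14). Islet tumours also had lower PP (2 of 2 genes, median -3.97), delta (3 of 4, -1.19), alpha (3 of 4, -0.94) and beta cell markers (5 of 10, -0.61) than normal islets. In the same comparison macrophage markers (4 of 5, 1.08) and fibroblast and pericyte markers (4 of 6, 0.59) were higher. From angiogenic islets to islet tumours, markers were lower for 8 of 9 hepatocyte genes (median -1.22) and 5 of 6 fibroblast and pericyte genes (-1.48). They were also lower for 4 of 5 lymphocyte genes (-1.36), both PP cell genes (-2.90) and 4 of 6 endothelial genes (-0.63). Among the other endocrine lists, 3 of 4 delta (-0.83) and 2 of 4 alpha cell genes (-0.42) were lower, and 1 of 10 beta cell genes (-0.21). In met-like primaries all 10 beta cell markers were lower than in islet tumours (median -1.85) and 3 of 4 alpha cell markers were higher (median 1.71). The third of these, Ttr, is also in the hepatocyte list, and the other two, Irx1 and Irx2, encode transcription factors and differed by 1.86 and 1.85. Gcg, the glucagon gene and the defining alpha cell marker, averaged 9.93 in islet tumours and 9.08 in met-like primaries (-0.85, adjusted p = 0.122) and was not called. Endothelial markers were lower for 5 of 6 genes (median -0.90) and hepatocyte markers higher for 2 of 9 (median 0.07). Neuronal markers were higher for 3 of 9 genes (median -0.05), with array means of 7.73 to 7.96 in islet tumours and 7.87 to 8.19 in met-like primaries. Of the glial markers limma called 0 of 5 genes, with an unadjusted p below 0.05 for 0 (median -0.04). In liver metastases 8 of 9 hepatocyte markers were higher than in met-like primaries (median 3.66), with array means of 10.73 to 11.26 against 7.31 to 7.90. Acinar markers were lower in metastases for 2 of 7 genes against met-like primaries (median -1.54) and for 6 of 7 against islet tumours (-1.56). Among the normal islets the acinar array means ran from 8.90 to 11.50. The part of these features in the results below was not tested.

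A group of 4 GABA-A subunit genes lies together on chromosome 5 in the order Gabrg1, Gabra2, Gabra4 and Gabrb1, with 1 other protein-coding gene between Gabra2 and Gabra4 in RefSeq. All 4 were higher in met-like primaries than in islet tumours, and 3 of them, Gabrg1, Gabra2 and Gabrb1, were low in every islet and islet tumour sample.

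Gabrb1 encodes the beta1 subunit, and beta subunits form part of the GABA binding site. Its levels in the 5 islet tumours were 5.15, 5.13, 4.83, 5.52 and 4.97, and in the 5 met-like primaries 8.79, 8.46, 8.61, 8.63 and 7.88. The 3 liver metastases stood at 8.04, 7.53 and 7.88. Every met-like primary and metastasis was above every other sample, and the 9 islet samples lay between 4.49 and 5.06. The difference from islet tumours to met-like primaries was 3.35 (SE 0.15, adjusted p = 1.78e-12). For the liver metastases it was 2.70 (SE 0.18, adjusted p = 2.98e-10). Levels fell from met-like primaries to liver metastases by 0.66, with an adjusted p of 0.0152, and this call was lost without the metastasis I-9821 (adjusted p = 0.118).

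Gabrg1 encodes the gamma1 subunit, a member of the gamma class that shapes benzodiazepine sensitivity. It measured 4.80, 4.92, 5.07, 5.03 and 4.87 in the islet tumours and 7.85, 8.71, 8.62, 6.06 and 7.27 in the met-like primaries. In the liver metastases it measured 7.07, 7.88 and 8.56. The met-like primaries spread over more than 2 log2 units, with II-648 and II-6413 highest and III-8016 lowest, yet the lowest was above every islet and islet tumour sample. The difference from islet tumours was 2.76 (SE 0.34, adjusted p = 2.31e-06) for met-like primaries and 2.90 (SE 0.40, adjusted p = 6.33e-06) for liver metastases.

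Gabra2 encodes the alpha2 subunit, which also carries part of the GABA binding site. Its met-like primary levels were 7.02, 8.26, 8.19, 6.51 and 6.44, again highest in II-648 and II-6413. Its islet tumour levels were 4.92, 5.07, 5.23, 5.0 and 4.82, and its liver metastasis levels 6.28, 8.16 and 8.55. The metastasis I-9820 was the lowest of the 3 for both Gabra2 and Gabrg1 and the highest for Gabrb1, so these neighbouring genes did not follow 1 order across the metastases. The difference from islet tumours was 2.28 (SE 0.35, adjusted p = 3.73e-05) for met-like primaries and 2.66 (SE 0.41, adjusted p = 2.53e-05) for liver metastases, and the second was 3.35 without I-9820. In the islet tumours the means of Gabrb1, Gabrg1 and Gabra2 were 5.12, 4.94 and 5.01. These lie under 6.4, so the tumour side of the differences is close to background signal.

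Gabra4, for the alpha4 subunit found in extrasynaptic receptors, had another course. Normal islets measured 7.15, 7.17 and 6.90, hyperplastic islets 7.98, 7.92 and 8.15 and angiogenic islets 8.25, 8.03 and 8.18. Islet tumours measured 7.81, 7.94, 8.14, 8.69 and 7.65, met-like primaries 8.53, 9.03, 9.13, 8.82 and 8.54 and liver metastases 8.21, 8.25 and 8.25. Every normal islet was below every other sample, and the tumours and met-like primaries overlapped in III-8017. The rise from normal to hyperplastic islets was 0.94 (SE 0.19, adjusted p = 0.00244) and that from islet tumours to met-like primaries 0.76 (SE 0.15, adjusted p = 0.00046). Islet tumours exceeded normal islets by 0.98 (SE 0.17, adjusted p = 0.000162), a call lost with the title code as a block (adjusted p = 0.0657). Liver metastases were lower than met-like primaries, at -0.57 (adjusted p = 0.0269). That call was lost with the block (0.38) and without II-648, II-6413 or any 1 of the 3 metastases (0.0653 to 0.0841).

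**Figure D2:**
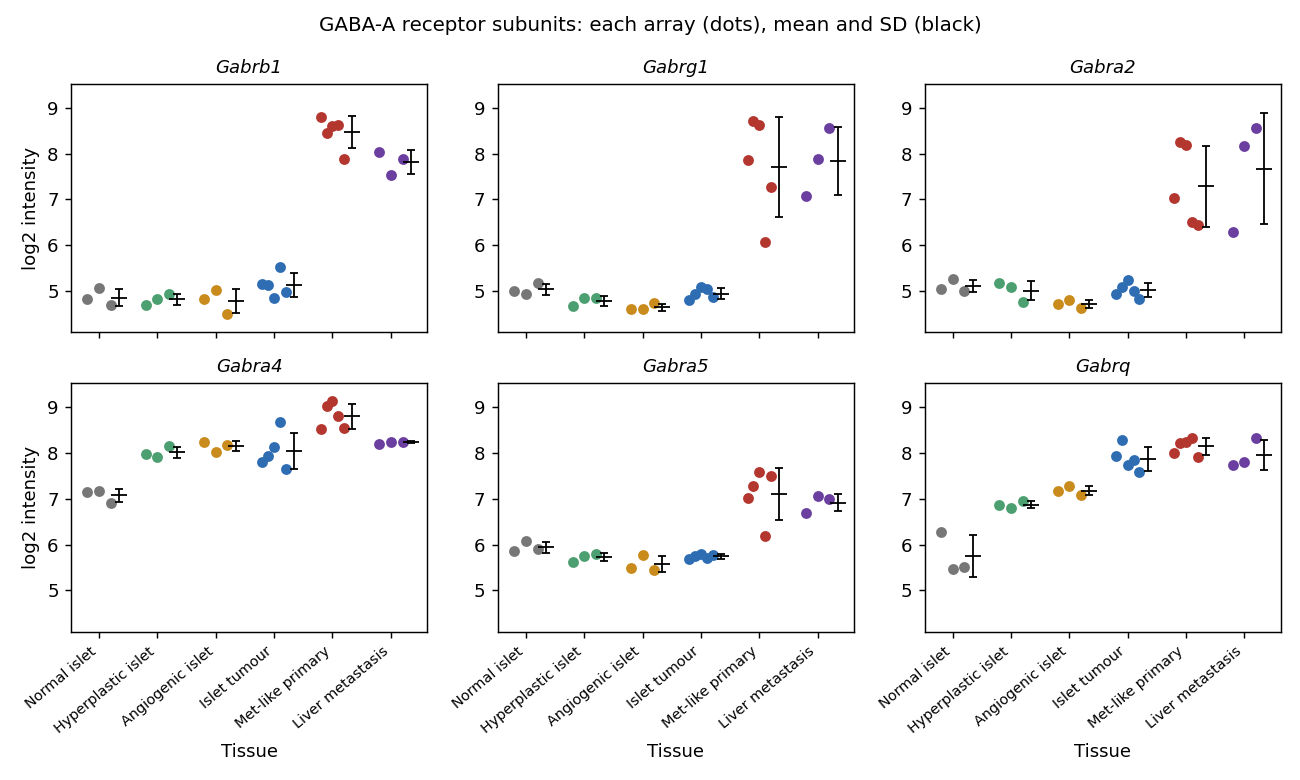
The log2 intensity of 6 GABA-A subunit genes is plotted for each array (dots) by tissue, with the mean and SD in black. Gabrb1, Gabrg1 and Gabra2 lie near 5 in islets and islet tumours and above 6 in every met-like primary and liver metastasis, while Gabra4 and Gabrq are lowest in normal islets.

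Gabra5, for an alpha5 subunit known from extrasynaptic receptors, neighbours Gabrg3 on chromosome 7. Gabra5 measured 5.68, 5.74, 5.79, 5.71 and 5.78 in islet tumours and 7.01, 7.28, 7.58, 6.18 and 7.50 in met-like primaries. It measured 6.70, 7.07 and 6.99 in liver metastases. The lowest met-like primary, III-8016, was still above every islet tumour. The differences from islet tumours, whose mean of 5.74 lies under 6.4, were 1.37 (SE 0.17, adjusted p = 3.07e-06) and 1.18 (SE 0.20, adjusted p = 8.04e-05). Gabrg3, a gamma subunit gene, stayed between 5.43 and 6.33 over all samples, which is under 6.4. Its calls were -0.34, 0.35 and -0.37 in tumours over normal islets, met-like primaries over tumours and metastases over met-like primaries. The middle call (adjusted p = 0.0143) was lost without II-648 (0.0516). The first was lost in 7 of 13 alternatives, among them with the block (0.287), with only these arrays (0.0501) and without Normal2006 (0.17) or Normal2007 (0.149) or the tumours II-649 (0.0649) or III-8017 (0.0643). The last was lost in 9 of 13, among them with the block (0.15), with only these arrays (0.0764) and without II-648 (0.103), III-8016 (0.0687), III-8023 (0.0665), I-9820 (0.162), I-9821 (0.0833) or I-9822 (0.0799).

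Gabrq encodes the theta subunit and lies on the X chromosome beside Gabra3. Normal islets measured 6.27, 5.46 and 5.51, hyperplastic islets 6.86, 6.80 and 6.96 and angiogenic islets 7.17, 7.28 and 7.09. Islet tumours measured 7.94, 8.28, 7.73, 7.85 and 7.58, the met-like primaries lay between 7.91 and 8.33, and the metastases between 7.74 and 8.33. The 3 islet stages did not overlap with each other or with the islet tumours. Gabrq rose by 1.13 (SE 0.19, adjusted p = 0.000431) from normal to hyperplastic islets and by 2.13 (SE 0.17, adjusted p = 1.11e-08) from normal islets to islet tumours. The normal islet mean of 5.75 lies under 6.4. The step from hyperplastic to angiogenic islets was 0.31 (adjusted p = 0.528) and did not pass. The step from angiogenic islets to tumours was 0.69 (SE 0.17, adjusted p = 0.0138), a call lost with the title code as a block (0.186) and without AngiogenicI-93 (0.0656).

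The other GABA-A subunit genes differed less. Gabre, for the epsilon subunit and also X-linked, was higher in met-like primaries than in islet tumours by 0.67 (adjusted p = 0.0336) and lower in liver metastases than in met-like primaries, at -0.81 (adjusted p = 0.0438). The first call was lost in 8 of 15 alternatives (adjusted p up to 0.113), among them with the block (0.0586), with only these arrays (0.105) and without I-9811 (0.0765), III-8017 (0.0517), III-8024 (0.11), I-9812 (0.0878) or III-8016 (0.113). The second was lost in 7 of 13 (up to 0.232), among them with the block (0.158), with only these arrays (0.0983) and without I-9812 (0.0972), III-8016 (0.0923), I-9820 (0.232) or I-9821 (0.152). The Gabre means of 6.07 in islet tumours and 5.94 in metastases lie under 6.4. Gabra3, for the alpha3 subunit, was lower in liver metastases than in islet tumours, at -0.41 (adjusted p = 0.0341), with both means (5.71 and 6.12) under 6.4. The call was lost without any 1 of the 3 metastases or of the tumours I-9811, II-649 and II-6415 (0.0535 to 0.15). Gabrp, for the pi subunit, was lower in islet tumours than in normal islets, at -0.39 (adjusted p = 0.0245), with both means (5.51 and 5.90) under 6.4. That call was lost with the block (0.178), with only these arrays in the fit (0.0642) and without Normal2007 (0.193) or the tumour III-8024 (0.0664). Gabra6, Gabrb2 and Gabrd passed in none of the 7 comparisons, with group means from 4.84 to 6.95. With the title code as a block, Gabrd was called higher in islet tumours than in angiogenic islets (adjusted p = 0.0164) and normal islets (0.0444), and lower in metastases than in met-like primaries (0.0475) and islet tumours (0.0482). The rho subunit genes Gabrr1, Gabrr2 and Gabrr3, known from the retina, also passed in none of the 7, with group means from 5.63 to 6.82. Gabrr2 passed the test for any difference among the 6 tissues (adjusted p = 0.0329), and it was lower in islet tumours than in normal islets with quantile normalisation (-0.26, adjusted p = 0.0296) or median centring (-0.27, 0.0307). Gabrr3 was called higher in islet tumours than in angiogenic islets with the block (0.48, adjusted p = 0.0242).

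Both GABA-B subunits were higher in met-like primaries than in islet tumours. Gabbr1 encodes the subunit that binds GABA. It measured 8.99, 8.80, 8.80, 8.71 and 8.51 in islet tumours, 10.08, 9.85, 9.73, 10.18 and 9.68 in met-like primaries and 9.77, 9.55 and 9.72 in liver metastases. The islet tumours did not overlap with the other 2 tissues, and the islets lay between 8.42 and 8.79. The differences from islet tumours were 1.14 (SE 0.09, adjusted p = 6.05e-09) and 0.92 (SE 0.11, adjusted p = 7.69e-07). Gabbr2 encodes the subunit that couples to G proteins. Normal islets measured 8.76, 8.70 and 8.69, islet tumours 9.24, 8.90, 9.41, 9.28 and 9.55 and met-like primaries 9.77, 9.72, 9.58, 9.91 and 9.34. Tumours exceeded every normal islet and overlapped with the met-like primaries. Gabbr2 rose by 0.56 (adjusted p = 0.00138) from normal islets to tumours and by 0.39 (adjusted p = 0.00813) from tumours to met-like primaries, the latter not called with only these 10 arrays in the fit (0.0518).

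Among the AMPA receptor subunits, Gria1 and Gria2 were higher in met-like primaries than in islet tumours, and Gria3 and Gria4 were higher in islet tumours than in normal islets. Gria2 encodes the subunit that makes edited AMPA channels impermeable to calcium. Its levels were 8.94, 9.33, 9.24, 8.49 and 8.09 in islet tumours and 11.21, 11.10, 10.95, 11.24 and 11.01 in met-like primaries. Liver metastases stood at 11.44, 11.39 and 11.26, and the islets between 8.84 and 9.35. The spread within the met-like primaries was small, and no sample of the 4 other tissues reached the lowest of them. The differences from islet tumours were 2.28 (SE 0.17, adjusted p = 2.32e-09) and 2.55 (SE 0.20, adjusted p = 3.28e-09), folds of 4.87 and 5.84.

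Gria1, a subunit known for its part in synaptic plasticity, was higher in met-like primaries than in both islet tumours and liver metastases. It measured 6.12, 6.11, 6.13, 6.05 and 5.94 in islet tumours, 7.63, 7.89, 8.46, 6.50 and 6.79 in met-like primaries and 6.25, 6.61 and 6.41 in liver metastases. The samples I-9812, II-648 and II-6413 were highest, and III-8016 overlapped with the metastases. Met-like primaries exceeded islet tumours, whose mean of 6.07 lies under 6.4, by 1.38 (SE 0.24, adjusted p = 0.000128). Liver metastases were lower than met-like primaries, at -1.03 (SE 0.28, adjusted p = 0.0139), and from islet tumours to metastases the difference was 0.35 (adjusted p = 0.352), which was called with only these 8 arrays in the fit (0.0152). The fall was lost without the metastases I-9820 (0.0686) or I-9822 (0.0513) and with only these 8 arrays in the fit (0.102).

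Gria4 encodes an AMPA subunit with fast kinetics. Normal islets measured 6.44, 5.84 and 5.84, hyperplastic islets 7.25, 7.23 and 7.32 and angiogenic islets 7.58, 7.58 and 7.54. Islet tumours measured 9.31, 8.12, 6.57, 8.44 and 8.43, with II-6415 below both later islet stages. Met-like primaries measured 9.65, 8.96, 8.96, 9.01 and 7.11 and liver metastases 8.50, 9.19 and 9.38, and III-8023 stood below its group. The difference from normal islets to islet tumours was 2.13 (SE 0.47, adjusted p = 0.00131), or 3.03 with the title code as a block (adjusted p = 0.00267). The normal islet mean of 6.04 lies under 6.4. The 3 hyperplastic islets were all above the 3 normal islets, at a difference of 1.22 (adjusted p = 0.173) that passed when the fit held only these 6 arrays (0.00237). Gria3, an X-linked AMPA subunit gene, rose by 0.83 (SE 0.18, adjusted p = 0.00109) from normal islets (9.12, 8.64 and 9.03) to islet tumours (10.17, 9.37, 9.98, 9.71 and 9.56), without overlap. Its difference from normal to hyperplastic islets was 0.56 (adjusted p = 0.0871), and it passed with the code as a block (0.0335).

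The kainate receptor genes gave a call for 4 of 5 members in the step from islet tumours to met-like primaries, all higher. Grik2 encodes a subunit that can form channels alone and was called in both steps after the angiogenic stage. Angiogenic islets measured 6.54, 6.83 and 6.53, islet tumours 7.50, 8.25, 7.66, 7.15 and 7.41 and met-like primaries 9.50, 9.21, 9.51, 8.85 and 9.25. Liver metastases measured 8.68, 8.99 and 8.92, and normal and hyperplastic islets lay between 5.90 and 6.49. Angiogenic islets, islet tumours and met-like primaries did not overlap with each other. Grik2 rose by 0.96 (SE 0.18, adjusted p = 0.00191) from angiogenic islets to tumours and by 1.67 (SE 0.16, adjusted p = 5.4e-08) from tumours to met-like primaries. Liver metastases exceeded islet tumours by 1.27 (SE 0.18, adjusted p = 1.09e-05).

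Grik3 and Grik4 were both higher in met-like primaries and then moved in opposite directions in liver metastases. Grik3, another channel-forming subunit gene, measured 6.55, 6.44, 6.82, 6.29 and 6.51 in islet tumours and 7.69, 6.75, 7.13, 7.70 and 7.45 in met-like primaries. In liver metastases it measured 8.71, 8.19 and 8.33, above every other sample. The met-like primary II-648 overlapped with the islet tumours. Grik3 rose by 0.82 (SE 0.16, adjusted p = 0.000374) and then by 1.06 (SE 0.18, adjusted p = 0.000288). Grik4 encodes a subunit that needs a channel-forming partner. It measured 6.71, 6.44, 6.75, 6.53 and 6.47 in islet tumours, 8.15, 7.76, 7.92, 7.57 and 7.85 in met-like primaries and 6.98, 6.97 and 6.81 in liver metastases. The 3 tissues did not overlap. Grik4 rose by 1.27 (SE 0.10, adjusted p = 2.36e-09) and then fell by 0.93 (SE 0.11, adjusted p = 4.51e-06). Its difference from islet tumours to metastases was 0.34 (adjusted p = 0.0199), which was lost with the block (0.409) and without I-9820 (0.0787) or I-9821 (0.0767).

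Grik5, which encodes a partner subunit like that of Grik4, measured 8.66, 8.74 and 8.92 in angiogenic islets, 9.26, 9.36, 9.31, 9.12 and 9.33 in islet tumours and 9.75, 9.67, 9.66, 9.55 and 9.36 in met-like primaries. Normal islets measured 9.01, 9.03 and 8.90 and liver metastases 9.34, 9.35 and 9.39. Every tumour was above every islet sample. Grik5 rose by 0.50 (SE 0.08, adjusted p = 0.000697) into tumours and by 0.32 (SE 0.07, adjusted p = 0.00182) into met-like primaries. The difference between tumours and normal islets, 0.30 (adjusted p = 0.01), was lost without Normal2007 (0.0586). Grik1 passed in no comparison, with group means from 5.19 to 5.33. Grid1, for a delta subunit that works in synapse adhesion, measured 6.93, 6.55, 7.76, 7.04 and 6.42 in islet tumours, 8.32, 8.37, 8.21, 8.01 and 7.99 in met-like primaries and 8.02, 8.10 and 8.0 in metastases. The tumour II-6415 came closest to the met-like primaries, and the groups did not overlap. Grid1 was higher by 1.24 (SE 0.17, adjusted p = 7.06e-06) and 1.10 (SE 0.19, adjusted p = 0.000117) than in islet tumours. Its difference of 0.60 (adjusted p = 0.0231) between tumours and normal islets was lost with the block (0.0603), with only these arrays (0.112) and without NormalI-93 (0.0549) or Normal2006 (0.095). The normal islet mean of 6.34 lies under 6.4.

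**Figure D3:**
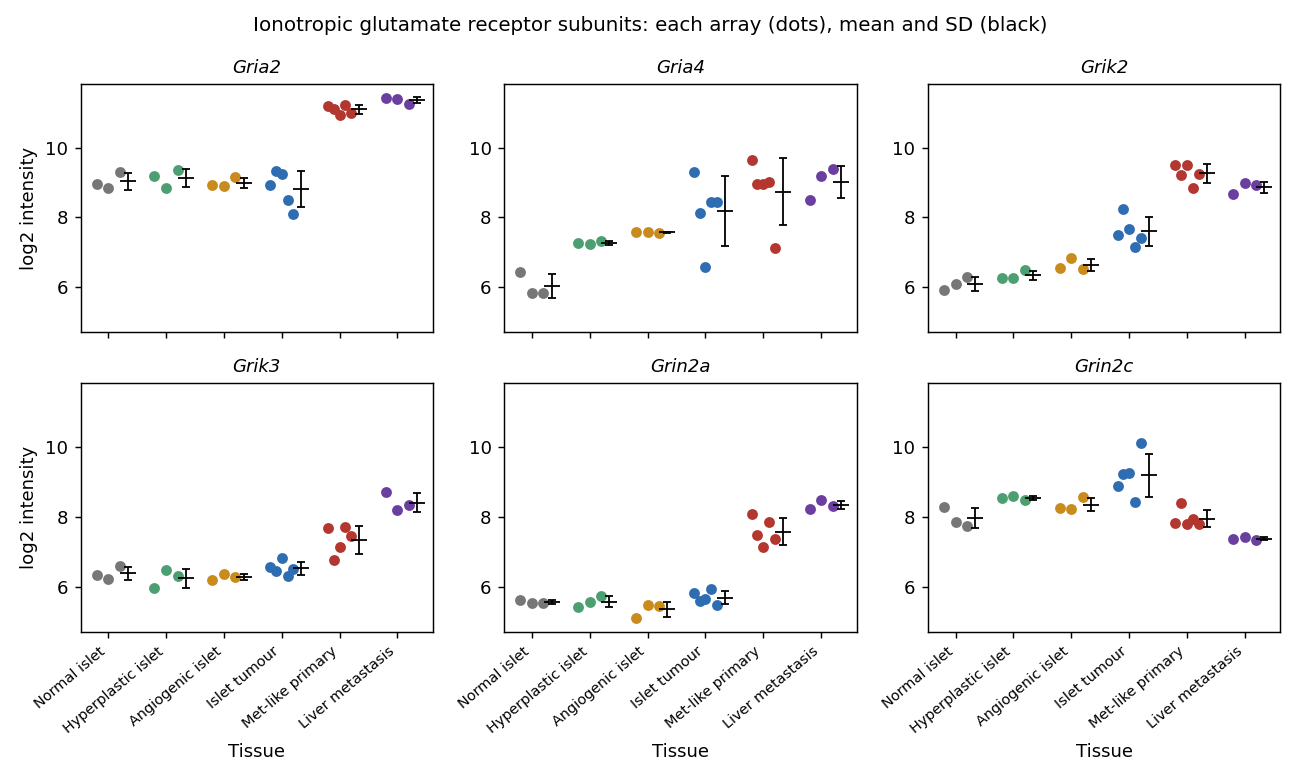
The log2 intensity of 6 ionotropic glutamate receptor genes is plotted for each array (dots) by tissue, with the mean and SD in black. Gria2, Grik2 and Grin2a are higher in every met-like primary than in every islet tumour, Grik3 is highest in liver metastases, and Grin2c is highest in islet tumours and lowest in liver metastases.

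The NMDA receptor genes split. Grin2a, for a regulatory subunit that binds glutamate, measured 5.82, 5.58, 5.64, 5.92 and 5.46 in islet tumours and 8.09, 7.47, 7.13, 7.85 and 7.36 in met-like primaries. Liver metastases measured 8.23, 8.48 and 8.32, all above the met-like primaries, and the islets lay between 5.10 and 5.73. The difference from islet tumours, whose mean of 5.68 lies under 6.4, was 1.90 (SE 0.14, adjusted p = 1.36e-09) for met-like primaries and 2.66 (SE 0.16, adjusted p = 8.44e-11) for metastases. The further rise from met-like primaries to metastases was 0.76 (SE 0.16, adjusted p = 0.00233) and was not called with the block (0.118).

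Grin2c, another glutamate-binding subunit gene, moved the other way. It measured 8.28, 7.86 and 7.74 in normal islets, 8.27, 8.22 and 8.56 in angiogenic islets and 8.90, 9.23, 9.27, 8.42 and 10.13 in islet tumours. Met-like primaries measured 7.83, 8.39, 7.79, 7.95 and 7.81 and liver metastases 7.36, 7.42 and 7.35. The tumour III-8024 was highest of all 22 samples, every metastasis was below every other sample, and every met-like primary was below every islet tumour. Grin2c fell by 1.24 from islet tumours to met-like primaries (SE 0.20, adjusted p = 7.73e-05) and liver metastases differed from islet tumours by -1.81 (SE 0.24, adjusted p = 3.41e-06). Tumours exceeded normal islets by 1.23 (SE 0.24, adjusted p = 0.00038), a call lost with the block (0.0772). The difference of 0.84 (adjusted p = 0.0276) between tumours and angiogenic islets was lost with the block (0.308), with only these arrays (0.156) and without AngiogenicI-93 (0.131) or Angiogenic2006 (0.107). Grin2b had levels between 5.23 and 5.94, all under 6.4. It was lower than in islet tumours in met-like primaries, at -0.29 (adjusted p = 0.0113), and in metastases, at -0.34 (adjusted p = 0.0062). The second of these calls was lost without I-9821 (0.0816). Grin2d, Grin3a and Grin3b passed in none of the 7 comparisons, with group means from 5.80 to 6.70, although with the block Grin3b was called higher in tumours than in normal islets (0.0418) and lower in metastases than in tumours (0.0323).

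The metabotropic receptors gave few calls. In the 3 comparisons among met-like primaries, liver metastases and islet tumours, limma called 0 of the 7 genes, with an unadjusted p below 0.05 for 0, 1 and 1, and the family's only calls were for Grm8, a receptor that inhibits adenylyl cyclase. With array weights, Grm8 was also called lower in metastases, at adjusted p = 0.019 against met-like primaries and 0.0261 against islet tumours. Grm8 was lower than in normal islets in hyperplastic islets, at -0.38 (adjusted p = 0.0183), and in islet tumours, at -0.29 (adjusted p = 0.017). Its levels in these tissues lay between 5.32 and 5.89, all under 6.4. The first call was lost with only these arrays (0.0582) and without Normal2006 (0.0932), Normal2007 (0.0541), HyperplasticI-93 (0.0892) or Hyperplastic2006 (0.0776). The second was lost with the block (0.36), with only these arrays (0.0581) and without Normal2006 (0.0991). Grm2, the family's gene with the highest mean over all arrays, measured 7.19, 7.17, 7.22, 7.27 and 7.05 in islet tumours and 7.30, 7.26, 7.10, 7.74 and 7.57 in met-like primaries, which overlapped, and lay between 6.92 and 7.51 in the other tissues. Grm3, Grm4, Grm5, Grm6 and Grm7 had group means from 5.42 to 6.83, and Grm5 was called higher in islet tumours than in angiogenic islets with the block (0.0485).

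The vesicular glutamate carriers load glutamate into secretory vesicles. Slc17a6, for VGLUT2, was higher in islet tumours than in the other tissues tested against them. The means of those tissues, from 5.46 to 5.90, lie under 6.4, and the islet tumour mean was 6.68. It measured 5.45, 5.57 and 5.66 in angiogenic islets, 7.53, 6.76, 5.85, 6.72 and 6.51 in islet tumours and 5.45, 5.60, 5.57, 6.83 and 6.07 in met-like primaries. Normal islets measured 5.55, 5.41 and 5.41 and liver metastases 5.28, 5.68 and 5.80. The tumour I-9811 was highest and II-6415 lowest of their group, and the met-like primaries III-8016 and III-8023 lay within the range of the islet tumours. Slc17a6 was higher in tumours by 1.22 (SE 0.28, adjusted p = 0.00214) than in normal islets, and metastases differed from tumours by -1.09 (SE 0.28, adjusted p = 0.00414). The tumours' difference from angiogenic islets, 1.12 (adjusted p = 0.0153), was lost without AngiogenicI-93 (0.0852) or Angiogenic2006 (0.054) and with only these arrays (0.0627). The difference of -0.77 (adjusted p = 0.0219) in met-like primaries was lost with only these arrays (0.1) and without I-9811 (0.0743), I-9812 (0.0665), II-648 (0.0578) or II-6413 (0.0581). Slc17a7, for VGLUT1, was lower than in tumours in met-like primaries, at -0.44 (adjusted p = 0.00531), and in metastases, at -0.46 (adjusted p = 0.0081). The latter call was lost without I-9821 (0.0758) or with only these arrays (0.0555). The Slc17a7 means in met-like primaries and metastases, 6.26 and 6.24, lie under 6.4, against 6.70 in tumours. Slc17a8, for VGLUT3, measured 6.81, 6.49, 6.60, 6.41 and 6.48 in tumours and between 6.26 and 6.69 elsewhere, with no call except in tumours over normal islets with the block (0.035). Grid2ip had group means from 6.15 to 6.41 and no call in the 7 comparisons. With the block it was called higher in tumours than in angiogenic islets (0.0228) and lower in metastases than in tumours (0.021), the latter also with quantile normalisation (0.0458) or array weights (0.0425).

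**Figure D4:**
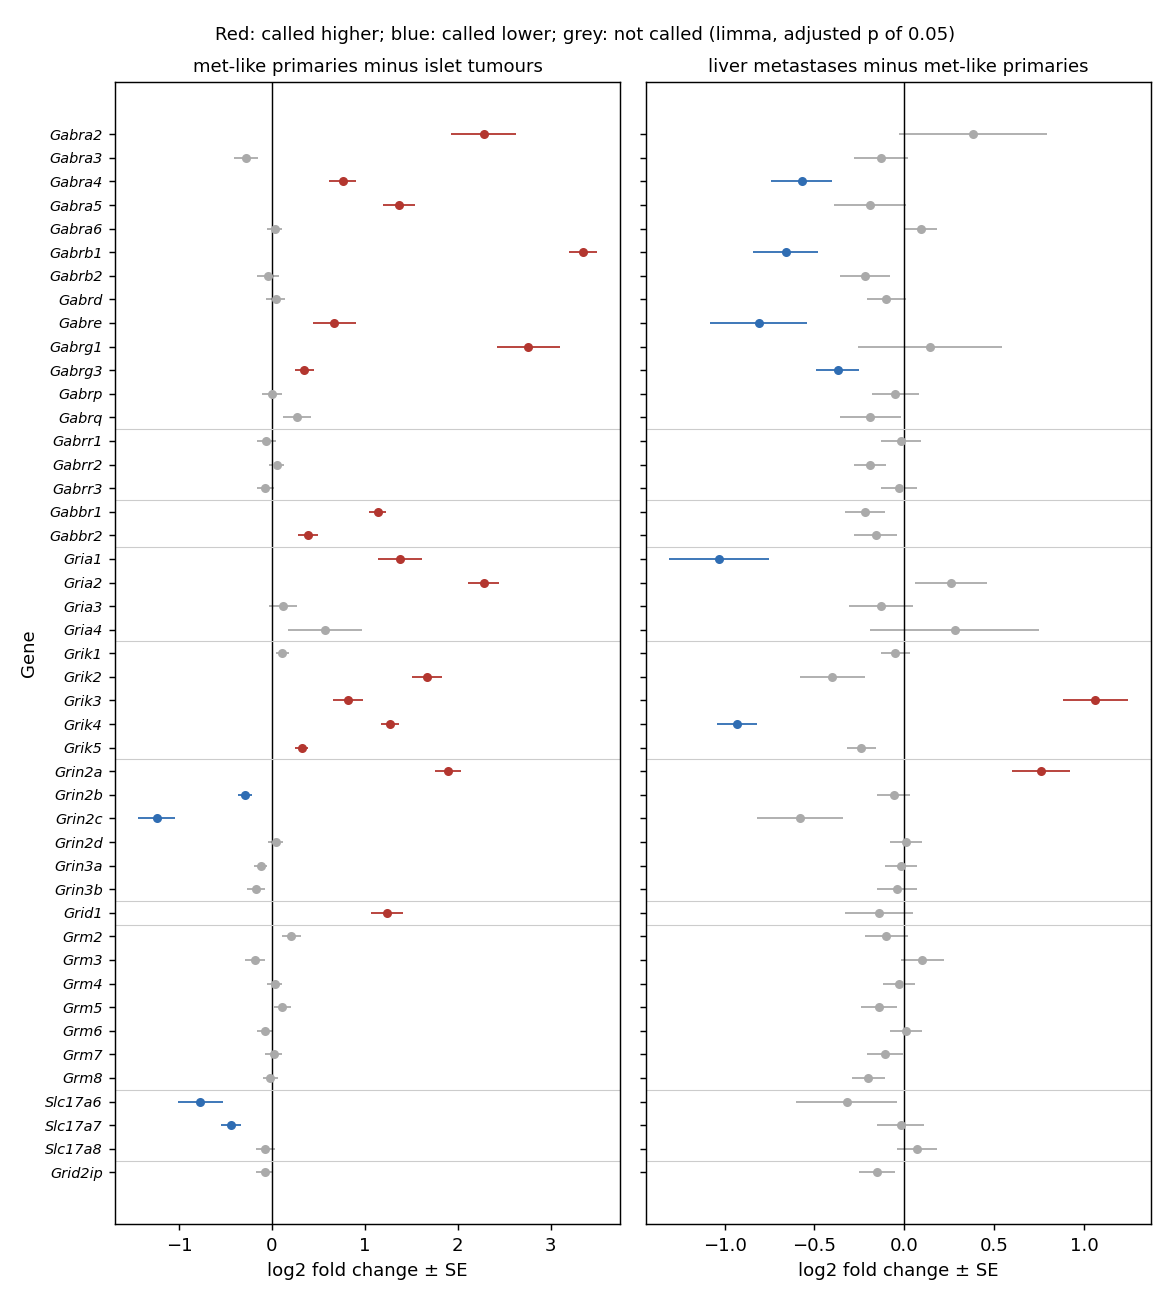
Points give the log2 fold change of each of the 45 genes, with bars of 1 SE, from islet tumours to met-like primaries (left) and from met-like primaries to liver metastases (right), on separate scales. On the left 17 genes were called higher (red) and 4 lower (blue), with Gabrb1 at 3.35 and Grin2c at -1.24 as the ends of the range, and on the right 2 were called higher and 6 lower.

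Over the 7 comparisons, 27 of the 45 genes were called in at least 1, and 18 in none. Of the 27, 15 had a mean over all arrays above 6.4 and 12 did not, and 23 of the 45 genes (beside 71.1% of all genes) exceeded it in all. Of the 4 X-linked genes, Gabrq and Gria3 were higher in islet tumours than in normal islets, a comparison in which Xist also differed without overlap.

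Genes that make, carry and bind these transmitters or hold their receptors in place were counted over 93 other measured genes. From islet tumours to met-like primaries 31 were higher and 13 lower (47.3%, beside 26.5% of all genes), with a median of 0.11. Partners of AMPA and kainate receptors accounted for 10 higher and 0 lower of 22 genes, and glutamate receptor scaffolds for 9 higher and 4 lower of 23. GABA receptor partners had 5 higher and 2 lower of 18, glutamate synthesis and carriers 5 and 3 of 18, and GABA synthesis and carriers 2 and 4 of 12. Many of these genes also serve functions outside transmitter signalling. The lists were chosen with earlier results of these data known, and calls of their genes were not checked by leaving out samples or by other fits.

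The 3 largest of these differences were in genes that organise synapses or join receptor complexes. Dlg2, which encodes the scaffold PSD-93, was higher in met-like primaries by 2.61 (SE 0.17, adjusted p = 3.75e-10). Nrxn3, for a neurexin, an adhesion protein of nerve terminals, was higher by 1.97 (SE 0.17, adjusted p = 1.69e-08). Olfm1, for a secreted protein found in AMPA receptor complexes, was higher by 1.93 (SE 0.16, adjusted p = 1.25e-08) and, in liver metastases against islet tumours, by 2.25 (SE 0.19, adjusted p = 8.47e-09).

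In the step to liver metastases 7 of the 93 genes were higher and 17 lower (25.8%, beside 15.7%). Slc38a1, for a glutamine carrier, was higher by 2.93 (SE 0.40, adjusted p = 2.26e-05) than in met-like primaries. Slc6a13, for a GABA carrier known from liver, was higher by 1.76 (SE 0.12, adjusted p = 1.22e-09), in the samples whose hepatocyte markers were also higher. Nrxn3 was lower, at -1.52 (SE 0.20, adjusted p = 1.28e-05). Against islet tumours, 32 genes were higher and 22 lower in metastases (58.1%, beside 36.6%), with Slc38a1 at 3.76 (SE 0.40, adjusted p = 2.4e-07) and Nlgn1, for the adhesion protein neuroligin, at -2.21 (SE 0.38, adjusted p = 9.74e-05).

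At the earlier stages these genes gave 8 higher and 1 lower from normal to hyperplastic islets (9.68%, beside 8.64%) and 18 higher and 13 lower from normal islets to islet tumours (33.3%, beside 29.0%). Neto2, for an auxiliary subunit of kainate receptors, rose by 1.40 (SE 0.34, adjusted p = 0.0105) in hyperplastic islets and by 2.24 (SE 0.30, adjusted p = 7.15e-06) in islet tumours. Cnih2, for an auxiliary protein of AMPA receptors, rose by 1.14 (SE 0.16, adjusted p = 3.49e-05) in hyperplastic islets. Lin7a, for a scaffold protein, rose by 0.78 (SE 0.17, adjusted p = 0.00347) in hyperplastic islets and by 1.60 (SE 0.15, adjusted p = 4.76e-08) in tumours, and Nlgn1 by 1.73 (SE 0.38, adjusted p = 0.00133) in tumours. Limma called 0 of these genes from hyperplastic to angiogenic islets, beside 2.53% of all genes, and 11 had an unadjusted p below 0.05. From angiogenic islets to tumours 5 were higher and 3 lower (8.60%, beside 9.54%), with Slc1a4, for a neutral amino acid carrier, at 0.62 (SE 0.16, adjusted p = 0.0195), Cpt1c, for a protein that binds AMPA receptors, at 0.47 (SE 0.10, adjusted p = 0.00425) and Cacng4, for an AMPA receptor auxiliary subunit, at 0.46 (SE 0.11, adjusted p = 0.0128).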

How the data were processed

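RNA from 22 tissue samples was measured on 1 array each. Per the labels' protocols, TRIzol was used to extract RNA, which was labelled with biotin, and the series text names aroma.affymetrix for the processing. The sources used here do not give its version, its normalisation steps or the chip definition. Deposited values are log2 intensities normalised by the authors, a unit read from their range, with array medians from 7.08 to 7.22. Arrays carry no read depth, and their number limits the precision. No 2 arrays held the same values (highest correlation 0.9931).

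Of 35511 probe sets, 23410 were listed in the gene table, 21789 with 1 symbol and 1621 with several, which were left out together with 12101 that were not listed. The probe set with the highest mean stood for each of 999 genes with several, which left 19938 genes. Of the members, only Gabrb2 had several probe sets.

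All 22 arrays were fitted in R 4.3.3 by limma 3.58.1, each tissue having its own mean, with two-sided moderated tests and Benjamini-Hochberg adjustment over all genes of each of the 7 comparisons. The fit was also run on simulated data with independent noise on each array. Those data hold no correlation between samples that share a title code, so that run cannot show its effect. Figures were drawn with matplotlib 3.10.9. The members, gene lists and tests were chosen with earlier results of these data known. Values in single samples are given for the members with the largest called differences, up to 14, and for the member with the highest mean of each family. They do not cover every tissue, and for the others a range or no value is given. Other called members have their log2 fold changes, and uncalled ones their range of group means. Of the pathway genes, the 3 with the largest called difference in each comparison are named. Values of Gabbr1, Gria3, Slc17a6 and of the marker genes Irx1, Irx2 and Gcg were added after they were seen.

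Titles share a code across the islet stages (NormalI-93 and HyperplasticI-93, for example). Deviations from the group means correlated at 0.197 to 0.448 for same-code pairs of normal and hyperplastic islets, and at 0.353 to 0.479 for hyperplastic and angiogenic islets. For normal and angiogenic islets they correlated more weakly, at 0.057 to 0.144. The codes were taken to pair the islet samples, but the reported fit leaves the pairing out and only the block alternative holds it. The labels do not say what a code stands for. For the block, tumour and metastasis titles were grouped by their prefix I, II or III, and I-93 was joined to prefix I. No other code crosses from islets to tumours. Across this assumed link I-9811 correlated at -0.155 with AngiogenicI-93 and at -0.082 with NormalI-93. Alternatives were the code as a replicate block, quantile normalisation, median centring, array weights, a filter on dim genes, all probe sets, only the arrays compared, and leaving out each array in turn. RefSeq promoters were matched by symbol.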

Additional observations from a re-analysis of the deposited data

Results flagged for a closer look

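Among 90 sets of values (45 genes in each of the 2 tissues with 5 samples), 5 had a sample set apart from the others of its tissue by more than Dixon's 95% limit, about as many as chance gives at 1 in 20. All 5 were in met-like primaries. Gria4 was 7.11 in III-8023, below the others at 8.96 to 9.65. Grin2c was 8.39 in II-648, above the others at 7.79 to 7.95. The other samples set apart were in genes at low levels. Grm3 was 5.81 in II-648 (others 5.46 to 5.55), Grm8 was 5.37 in III-8016 (others 5.48 to 5.52) and Gabra6 was 4.73 in II-6413 (others 4.95 to 5.01).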

How the results depend on the processing

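Of 66 calls of single genes, 41 were kept under every alternative run, 25 were lost under at least 1, and 0 reversed. With a filter on dim genes, which left 23 of the 45 to be tested, the count called was 12 for met-like primaries against islet tumours (beside 36.8% of all genes), 8 for liver metastases against islet tumours (48.6%), 5 for liver metastases against met-like primaries (20.6%) and 17 for any difference (73.3%). With only the arrays compared it was 5 from normal to hyperplastic islets (beside 9.16% of all genes) and 3 from angiogenic islets to islet tumours (3.85%). Leaving out 1 array gave 2 to 7 from angiogenic islets to islet tumours and 4 to 8 from met-like primaries to liver metastases. With the replicate block, 10 genes were called from angiogenic islets to islet tumours (beside 13.5% of all genes). These tissues share only the assumed code I, in AngiogenicI-93 and I-9811, at a correlation of -0.155. The block gave 4 from normal to hyperplastic islets (10.6%), where Gria3 was added, and 20 from islet tumours to met-like primaries (28.8%), where same-prefix pairs correlated at -0.087 to 0.206. In the 2 paired comparisons of islet stages the block changed no other call of these genes. With array weights, 5377 of all genes were called between liver metastases and met-like primaries, against 3126. The cause of these changes was not tested beyond the number of genes or arrays left.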

Other observations

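Enzymes and a carrier that supply GABA for release were also measured, and the 3 genes given here were picked after their values were seen. Gad1, for a glutamate decarboxylase that makes GABA, averaged 9.87 in normal islets, 8.95 in hyperplastic and 8.25 in angiogenic ones. Islet tumours averaged 8.27, met-like primaries 6.96 and liver metastases 6.90. It was called lower in met-like primaries than in islet tumours (-1.30, limma). Gad2, for the other decarboxylase, had means of 7.06, 7.83 and 8.41 in islet tumours, met-like primaries and liver metastases, with no call. Slc32a1, for the vesicular GABA carrier, had means of 6.97 in islet tumours, 7.92 in met-like primaries and 7.02 in liver metastases, and was called higher in met-like primaries than in islet tumours (0.95) and lower in metastases than in met-like primaries (-0.90).

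Gabrb2 has 2 further probe sets, with mean levels of 4.58 and 4.77, both under 6.4. In a limma fit of all probe sets, the first was higher in islet tumours than in normal islets, at 0.49 (adjusted p = 0.0036). It was also higher in tumours than in angiogenic islets, at 0.39 (0.0456), and lower in metastases than in tumours, at -0.32 (0.0425). The second differed by -0.01 (0.977) between tumours and normal islets. Neither it nor the probe set used above gave a call in these comparisons.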
